A study of Homo sapiens with 18 samples.

Results

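The genes described here are 31 members of the p53 pathway, and 31 of 31 were found by name among the 26249 genes of the deposited files. They were selected by gene symbol: 3 brakes on p53 (MDM2, MDM4 and PPM1D) and 28 genes known as targets that p53 switches on. They were followed in 18 libraries of 3′ messenger RNA (QuantSeq) from cultured cells labelled as the multiple myeloma lines XG1 and AMO1, which the series calls resistant. Multiple myeloma is a cancer of plasma cells, the antibody-secreting cells of the marrow. Cells of each line stood for 24 h in the solvent DMSO or in YKL-5-124 at 100 nM or 1000 nM, with 3 libraries in each of the 6 groups. YKL-5-124 is a covalent inhibitor of CDK7, the kinase that phosphorylates RNA polymerase II as genes start to be transcribed and that activates the kinases of the cell cycle. The replicates carry numbers only, with no word on whether each was its own culture, so a p-value here reflects how far these libraries scatter, which may be technical.

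The transcription factor p53 is held at a low level by MDM2, a ubiquitin ligase that marks it for destruction, and by MDM4, a relative of MDM2 that blocks its activity. DNA damage and other stress loosen this hold. p53 then binds paired copies of a short motif near its target genes and raises genes of cell cycle arrest, DNA repair, metabolism and death. MDM2 is itself such a target, which closes a feedback loop. Through the CDK inhibitor p21, the product of CDKN1A, p53 also brings about repression of cell division genes by the DREAM complex.

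The values were FPKM and appear to have been rescaled to added spike-in RNA, since the summed spike-ins were nearly level, with group means from 171365 to 184682 FPKM. No source used here gives the read depth. FPKM on 3′ libraries does not allow levels of different genes to be compared, so genes are compared only with themselves. The summed FPKM of all genes averaged 1515080 in DMSO, 941623 at 100 nM and 600617 at 1000 nM in AMO1, and 1315370 in DMSO, 1066010 at 100 nM and 964297 at 1000 nM in XG1. In bulk RNA, fewer cells and less RNA per cell cannot be told apart. The median tested gene changed against DMSO by log2 −0.35 at 100 nM and −0.77 at 1000 nM in AMO1, and by −0.15 at each dose in XG1. Each change is therefore given on 2 scales: the deposited scale, and a relative scale after division by size factors that hold the median gene level. A gene is said to have risen or fallen where limma gave a Benjamini-Hochberg adjusted p under 0.05 over all genes tested, on log2(FPKM + 1), a scale that understates the changes of low genes. With 3 libraries against 3, a single-gene exact permutation test could not go below p = 0.1.

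The libraries labelled XG1 held the markers of the labelled cell type at far lower levels than those labelled AMO1. Of the 11 plasma cell markers, 6 averaged at least 1 FPKM in XG1 DMSO and 11 in AMO1 DMSO. In DMSO the 11 plasma cell markers summed to 94.1 to 148 FPKM in XG1 and to 8387 to 9428 FPKM in AMO1. Their defining surface protein SDC1 stood at 24.2 ± 12.4 against 5067 ± 325 FPKM (mean ± SD, n = 3 each) and the transcription factor IRF4 at 0.533 ± 0.310 against 77.5 ± 6.13. The 12 erythroid markers, the fetal globin gene HBG1 among them, summed to 4952 to 5355 FPKM in XG1 and to 157 to 186 FPKM in AMO1. XG1 below therefore means the libraries labelled XG1. The 3 XG1 libraries at 100 nM were the least alike, with Spearman correlations over all genes from 0.817 to 0.956. In AMO1 at 1000 nM, replicate 2 had a lower summed FPKM (431965) than replicates 1 and 3 (686266 and 683618).

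Of the 31 genes, 28 passed the filter on low values (at least 1 FPKM in at least 3 of the line's 9 libraries) in AMO1, 26 in XG1 and 29 in the fit of both lines. PLK2, a stress-induced kinase of the polo family, and SPATA18, a factor of mitochondrial quality control, were tested in neither line, with at most 0.966 FPKM for PLK2 and 0.892 FPKM for SPATA18 in any library. TP53I11 was not tested in AMO1, where it reached 0.0985 FPKM at most against 1.51 in XG1. EDA2R, PHLDA3 and PERP were not tested in XG1, where their highest values were 0.252, 0.503 and 0.585 FPKM. In AMO1 they spanned 1.77 to 4.06, 23.4 to 37.7 and 10.2 to 31.2 FPKM over the 9 libraries.

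The promoters of several members hold letters of the p53 motif, and 4 of them are printed because SESN1 and FDXR rose and DDB2 and AEN fell under the inhibitor in AMO1, as described further on. RefSeq windows of 300 bases, 250 before to 50 after a start site (GRCh38.p14), were found for 26 of the 31 genes and searched for the 10-base p53 half-site, whose pattern reads the same on both strands. A half-site stood in 7 of the 26 genes (26.9%: PLK2, SESN1, DDB2, EI24, RPS27L, AEN and FDXR) and in 8.06% of the 27305 genes of the table. A pair of half-sites separated by at most 13 bases stood in 1 of the 26 (DDB2) and in 0.0366% of all genes. Each line below gives 30 bases, 5′ to 3′ on the gene's strand, with the half-site in capitals.
SESN1 (chr6:109009018-109009047, minus strand): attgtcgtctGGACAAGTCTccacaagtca
FDXR (chr17:74872986-74873015, minus strand): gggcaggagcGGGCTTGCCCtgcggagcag
AEN (chr15:88621296-88621325, plus strand): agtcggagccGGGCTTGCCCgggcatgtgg
DDB2 (chr11:47214974-47215003, plus strand): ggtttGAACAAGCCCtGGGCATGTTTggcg
The first base of the half-site lay at −49 from the start site in SESN1, −11 in FDXR and −34 in AEN. In DDB2 the pair began at 6 and 17 after it. The half-sites of FDXR and AEN have the same letters. These matches describe the letters only, and their part in the changes under the inhibitor was not tested.

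Before any inhibitor, AMO1 and XG1 held different sets of p53 pathway transcripts. CDKN1A measured 161, 177 and 148 FPKM in AMO1 and 3.47, 1.51 and 2.40 in XG1 (−5.59 in log2, SE 0.26, adjusted p = 6.38e-12). MDM2 measured 89.5, 108 and 85.6 in AMO1 and 14.2, 14.8 and 14.96 in XG1 (−2.6002, SE 0.18), while MDM4 went the other way, with 5.68, 6.43 and 4.92 in AMO1 and 18.4, 16.8 and 19.6 in XG1 (1.53, SE 0.16). For each of these genes the libraries of the lines did not overlap. The share of all genes without such overlap was not computed, here or for the doses below.

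Of the 29 genes tested across lines, 10 were higher in XG1 on the deposited scale, where 45% of 12792 genes were higher, and 10 were lower, where 19.8% were. On the relative scale 7 were higher (32.3% of all genes) and 15 lower (33.5%). Scaled to the summed FPKM instead, the split became 13 and 10, with no share over all genes computed for that scaling. Lower on both scales were MDM2, CDKN1A, TP53INP1, SESN2, DDB2, AEN, EDA2R, PHLDA3, PERP and BTG2. The AKT inhibitor gene PHLDA3 stood at 34.3, 37.7 and 31.97 FPKM in AMO1 and 0.341, 0.206 and 0.247 in XG1, and PERP, which codes for a membrane protein of cell contacts and cell death, at 25.2, 31.2 and 27.7 and 0.375, 0.270 and 0.431. In XG1 both lay near the most common lowest value of the files. Higher in XG1 on both scales were MDM4, TP53I11, ZMAT3, GADD45A, CMBL, DRAM1 and EI24. TP53I11 was low, at 0.333, 1.19 and 1.48 FPKM in XG1 and 0.0739, 0.0985 and 0.0905 in AMO1, and it has exons that overlap those of TSPAN18 on the other strand. The hydrolase gene CMBL measured 3.41, 3.68 and 4.51 FPKM in AMO1 and 35.03, 30.2 and 38.6 in XG1 (2.87, SE 0.21), and ZMAT3, which codes for an RNA-binding protein, 2.15, 2.43 and 2.71 and 15.5, 13.8 and 14.3 (2.18, SE 0.19). The relative-scale call of GADD45A was lost without XG1 DMSO replicate 3 (adjusted p = 0.0644) or AMO1 DMSO replicate 1 (0.0554). The markers of plasma and erythroid cells differed between the same libraries, and their part in these line differences was not tested. The plot of levels in DMSO shows the spread of the members around equality.

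**Figure D1:**
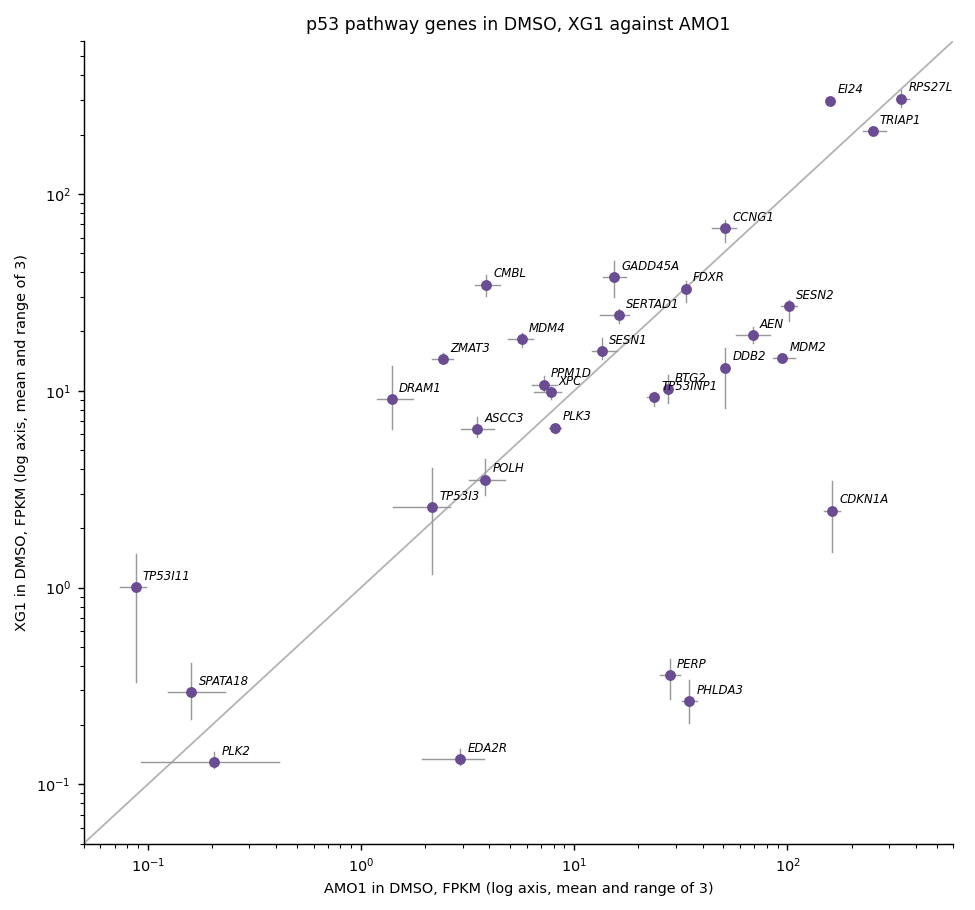
Mean FPKM of each of the 31 p53 pathway genes in DMSO, in AMO1 (x axis, log scale) and XG1 (y axis, log scale). Each point is 1 gene, bars run from the lowest to the highest of 3 libraries, and the grey line marks equal levels. CDKN1A, PHLDA3, PERP and EDA2R lie far below the line, and CMBL, DRAM1 and ZMAT3 above it.

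In AMO1 at 1000 nM, the p53 pathway split: MDM2 and SESN2 fell most, while TP53I3, ZMAT3, SERTAD1 and SESN1 rose even though most of the transcriptome fell. Of the 28 tested genes 6 rose on the deposited scale, where 2.51% of 10503 genes rose, and 12 fell, where 65.7% did. On the relative scale 15 rose (23.5% of all genes) and 4 fell (24.5%), and scaling to the summed FPKM gave 18 and 2. Without the filter on low values, the relative changes of XPC, POLH, CCNG1, PLK3 and PHLDA3 turned negative. Of the 19 relative calls 8 held in every setting tried, against 15 of the 18 deposited ones. The median over the 28 was log2 −0.31 on the deposited scale, against −0.77 over all genes, and 0.50 on the relative scale, against 0.01. Together the 31 genes made up 0.0954% to 0.105% of the summed FPKM of the AMO1 DMSO libraries and 0.154% to 0.163% at 1000 nM. The summed FPKM fell further in AMO1 than the median gene did, so the share of a median gene rose too. Scaling to the summed FPKM lifts a median gene in the same way, and no share over all genes was computed for that scaling, here or below. At 100 nM, 4 genes rose on the deposited scale (2.73% of all genes) and 11 fell (29.5%), and on the relative scale 8 rose (14% of all genes) and 7 fell (17%), or 12 and 3 when scaled to the summed FPKM. The deposited count of 15 at 100 nM dropped to 9 without DMSO replicate 1, 8 without DMSO replicate 2, 8 without 100 nM replicate 1 and 9 without 100 nM replicate 2. Without 1000 nM replicate 2, the library of low summed FPKM, 8 rose and 11 fell at 1000 nM on the deposited scale and 15 and 5 on the relative scale.

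**Figure D2:**
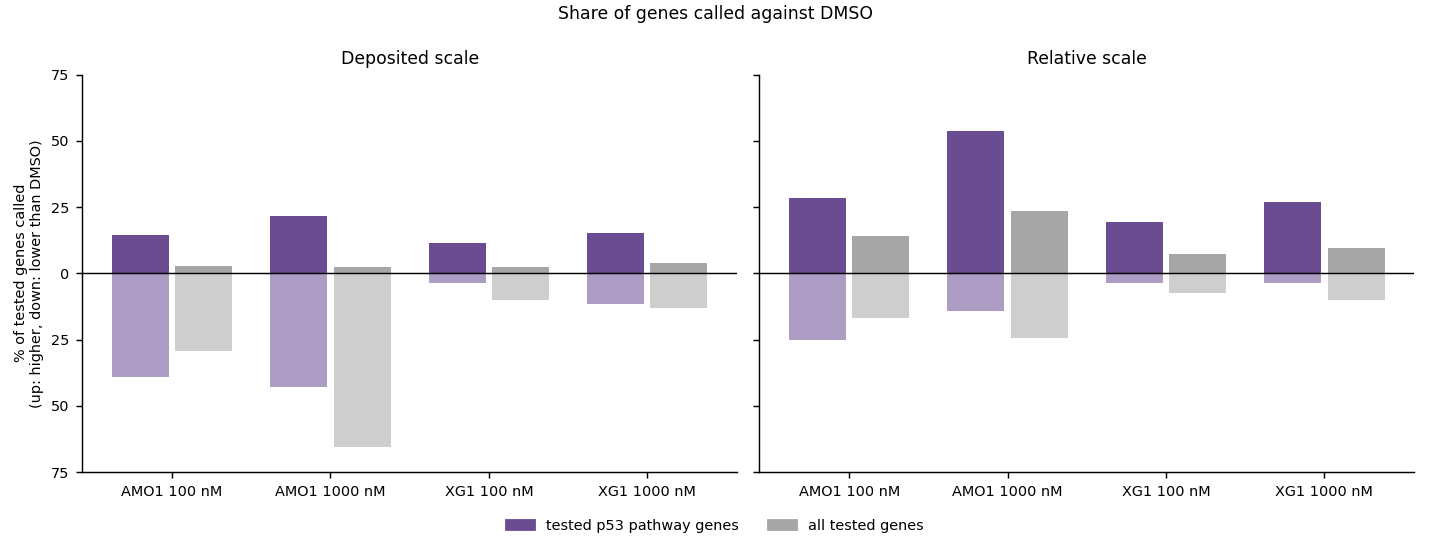
Percent of tested genes called higher (upward bars) or lower (downward bars) than DMSO at adjusted p under 0.05, for the p53 pathway genes (purple) and all tested genes (grey), on the deposited scale (left) and the relative scale (right). In AMO1 at 1000 nM on the relative scale 15 of 28 pathway genes were higher, against 23.5% of all genes.

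All 3 brakes on p53 fell in AMO1 on the deposited scale at both doses, as did 29.5% of all genes at 100 nM and 65.7% at 1000 nM. Relative to the median gene, 3 of 3 fell at 100 nM and 1 of 3, MDM2, at 1000 nM. MDM2 measured 89.5, 108 and 85.6 FPKM in DMSO, 41.0, 38.5 and 44.1 at 100 nM and 24.2, 16.5 and 26.8 at 1000 nM. Every library at a higher dose lay below every library at a lower one. The change was log2 −1.17 at 100 nM (SE 0.21, adjusted p = 0.00130) and −2.04 at 1000 nM (SE 0.21, adjusted p = 3.09e-06), with relative values of −0.74 and −1.09. MDM2 has exons that overlap those of CPM on the other strand, and no source used here says whether reads were counted by strand.

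MDM4 measured 5.68, 6.43 and 4.92 FPKM in DMSO, 2.71, 3.01 and 2.43 at 100 nM and 2.42, 1.62 and 2.95 at 1000 nM. The treated libraries lay below all controls, and those of the 2 doses overlapped. The change was log2 −0.84 at 100 nM (SE 0.20) and −1.02 at 1000 nM (SE 0.20, adjusted p = 4.55e-04). Its relative change passed at 100 nM (−0.48, adjusted p = 0.0154, but 0.0567 without DMSO replicate 1 and 0.0532 without 100 nM replicate 3) and not at 1000 nM (−0.27, adjusted p = 0.0965). PPM1D, which codes for a phosphatase that reverses damage signalling to p53, measured 6.93, 8.30 and 6.31 FPKM in DMSO, 4.15, 3.72 and 3.63 at 100 nM and 3.69, 2.71 and 4.36 at 1000 nM. All treated libraries stood under all controls. The change was −0.75 at 100 nM (adjusted p = 0.00979, 0.0515 without DMSO replicate 2) and −0.84 at 1000 nM (adjusted p = 0.00156). Relative to the median gene PPM1D passed at 100 nM only (−0.37, adjusted p = 0.0310), a call lost without DMSO replicate 1 or 2 or without 100 nM replicate 2 or 3 (adjusted p from 0.0833 to 0.0947), and at 1000 nM it gave −0.04.

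The members of cell cycle arrest and growth control rose relative to the median gene in AMO1 at 1000 nM, 7 of 7 tested, where 23.5% of all genes rose. On the deposited scale 3 rose and 0 fell by limma, against 2.51% and 65.7% of all genes. When the filter on low values was dropped, which also changes the size factors, 2 of the 7 turned (CCNG1 to −0.30 and PLK3 to −0.13). CDKN1A measured 161, 177 and 148 FPKM in DMSO, 135, 121 and 150.5 at 100 nM and 170.1, 114 and 208 at 1000 nM. These groups overlapped, and the change at 1000 nM was log2 −0.02 (SE 0.23, adjusted p = 0.945). Divided by the size factors, the same libraries gave 122, 115 and 110.3 in DMSO, 137, 117 and 140.4 at 100 nM and 209, 213 and 252 at 1000 nM. Relative to the median gene CDKN1A thus rose at 1000 nM (0.95, SE 0.10, adjusted p = 4.73e-05), with every 1000 nM library above all others.

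ZMAT3 measured 2.15, 2.43 and 2.71 FPKM in AMO1 DMSO, 5.15, 5.37 and 5.95 at 100 nM and 9.54, 5.37 and 10.6 at 1000 nM. All treated libraries lay above all controls. It rose by log2 0.92 (SE 0.22, adjusted p = 0.00713) and 1.43 (SE 0.22, adjusted p = 8.46e-05), and by 1.21 and 2.19 on the relative scale. SERTAD1, whose product binds CDK4 and acts on E2F transcription, measured 18.1, 17.4 and 13.2 FPKM in DMSO, 33.6, 34.9 and 31.9 at 100 nM and 39.8, 24.6 and 45.0 at 1000 nM. It too had no overlap with the controls, and rose by 1.01 (adjusted p = 0.00549) and 1.09 (adjusted p = 9.39e-04), or 1.42 and 2.02 relative to the median gene.

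BTG2, an antiproliferative gene, measured 26.4, 28.0 and 27.7 FPKM in AMO1 DMSO, 37.9, 42.9 and 40.1 at 100 nM and 45.8, 28.5 and 51.2 at 1000 nM. The low value at 1000 nM was replicate 2, the library with the low summed FPKM. BTG2 rose at 1000 nM on the deposited scale (0.55, SE 0.22, adjusted p = 0.0384), a call lost without any 1 of the 3 DMSO libraries or without 1000 nM replicate 1 or 3 (adjusted p from 0.0807 to 0.145). On the relative scale it rose at both doses, by 0.96 and 1.495 (adjusted p = 6.22e-05 and 1.61e-06). GADD45A, a growth arrest gene that responds to DNA damage, went from 13.6, 17.5 and 15.02 FPKM in DMSO to 11.2, 9.56 and 12.4 at 100 nM and 29.3, 15.1 and 21.3 at 1000 nM, and passed against DMSO on the relative scale at 1000 nM only (1.36, adjusted p = 3.36e-05). The cyclin gene CCNG1 and the stress kinase gene PLK3 rose at 1000 nM on the relative scale alone, by 0.46 and 0.55. Their deposited values went from 44.3 to 57.3 to 22.5 to 46.6 FPKM and from 7.64 to 8.65 to 5.33 to 7.79. The CCNG1 call was lost without DMSO replicate 1 or 2 or without 1000 nM replicate 1 or 3 (adjusted p from 0.0731 to 0.0921). PLK3 has exons that overlap those of TCTEX1D4 on the other strand.

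The redox, metabolism and autophagy members of AMO1 went both ways, with 3 of 7 higher and 3 lower on the deposited scale at 1000 nM, where 2.51% of all genes rose and 65.7% fell. On the relative scale 4 were higher and 1 lower, where 23.5% of all genes rose and 24.5% fell. TP53I3, a quinone oxidoreductase gene, measured 2.601, 2.48 and 1.41 FPKM in DMSO, 4.37, 2.62 and 4.96 at 100 nM and 7.82, 6.70 and 7.96 at 1000 nM. The 3 groups did not overlap. It rose by log2 1.45 at 1000 nM (SE 0.23, adjusted p = 8.95e-05, relative 2.20), and by 0.65 at 100 nM (adjusted p = 0.0416, relative 0.92), where the deposited call was lost without DMSO replicate 2 or 3 or without 100 nM replicate 1 or 3 (adjusted p from 0.0639 to 0.179). TP53I3 has exons that overlap those of FAM228B on the other strand.

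The sestrins, which restrain the growth kinase complex mTORC1, split. SESN1 measured 12.5, 15.9 and 12.1 FPKM in AMO1 DMSO, 23.1, 24.5 and 21.9 at 100 nM and 32.6, 18.9 and 27.3 at 1000 nM, with all treated libraries above all controls. It rose by log2 0.89 at 1000 nM (SE 0.22, adjusted p = 0.00262, relative 1.80) and by 0.74 at 100 nM (adjusted p = 0.0192, relative 1.15), the latter lost on the deposited scale without DMSO replicate 1 or 3 or without 100 nM replicate 1 or 2 (adjusted p from 0.0596 to 0.0748). SESN2 measured 92.95, 110.3 and 102 FPKM in DMSO, 25.8, 22.1 and 26.2 at 100 nM and 31.2, 19.7 and 29.8 at 1000 nM, with all treated libraries far below the controls. The change was log2 −1.998 at 100 nM (SE 0.21, adjusted p = 1.64e-05, relative −1.56) and −1.90 at 1000 nM (SE 0.21, adjusted p = 5.16e-06, relative −0.95).

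FDXR, which codes for the reductase that feeds electrons to mitochondrial ferredoxin, measured 33.1, 34.9 and 31.9 FPKM in AMO1 DMSO, 42.0, 36.2 and 44.6 at 100 nM and 49.1, 38.4 and 61.3 at 1000 nM. The treated libraries were above the controls. FDXR rose at 1000 nM by log2 0.54 (SE 0.21, adjusted p = 0.0330), lost without any 1 of the 3 DMSO libraries or without 1000 nM replicate 1 or 3 (adjusted p from 0.0593 to 0.132), and by 1.49 on the relative scale (adjusted p = 4.76e-06). TP53INP1, a stress protein gene that acts in autophagy, rose on the relative scale alone, by 0.86 at 100 nM and 1.14 at 1000 nM, with 24.3, 24.9 and 21.9 FPKM in DMSO, 31.3, 35.6 and 31.1 at 100 nM and 34.2, 18.5 and 32.7 at 1000 nM. The lysosomal autophagy gene DRAM1 and CMBL fell at 1000 nM on the deposited scale alone (−0.56 and −0.67). CMBL did not pass once DMSO replicate 3 (adjusted p = 0.0551) or 1000 nM replicate 2 (0.0572) was left out.

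Among the 4 DNA repair members of AMO1, DDB2 fell and XPC and POLH rose relative to the median gene. DDB2, a sensor of ultraviolet damage, measured 50.7, 51.8 and 50.9 FPKM in DMSO, 15.9, 22.1 and 25.1 at 100 nM and 21.8, 12.7 and 21.6 at 1000 nM. Every treated library was below every control, and the doses overlapped. The change was log2 −1.27 at 100 nM (SE 0.24, adjusted p = 0.00154) and −1.44 at 1000 nM (SE 0.24, adjusted p = 1.32e-04), and −0.84 and −0.51 relative to the median gene, the latter −0.12 (adjusted p = 0.478) when scaled to the summed FPKM. XPC, which codes for a partner in damage recognition, gave −0.32 on the deposited scale at 1000 nM and 0.53 on the relative scale (adjusted p = 0.172 and 0.00529). POLH, the gene of a polymerase that copies past lesions, gave −0.17 and 0.58 (adjusted p = 0.456 and 0.00347). Without the filter on low values these relative changes turned to −0.15 for XPC and −0.0216 for POLH. From DMSO to 1000 nM, XPC went from 6.48 to 8.69 to 4.68 to 7.72 FPKM and POLH from 3.20 to 4.76 to 2.47 to 3.87. The helicase gene ASCC3, at 2.95 to 4.22 FPKM in DMSO and 2.02 to 3.73 at 1000 nM, passed on neither scale (−0.29 and 0.44). XPC has exons that overlap those of LSM3, and POLH those of GTPBP2, on the other strand.

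Of the 7 death and survival members tested in AMO1, 0 rose and 5 fell at 1000 nM on the deposited scale by limma, where 65.7% of all genes fell. The relative counts were 2 higher and 1 lower, against 23.5% and 24.5% of all genes. AEN, a nuclease gene of apoptosis, measured 66.7, 82.4 and 57.2 FPKM in DMSO, 36.03, 39.8 and 42.6 at 100 nM and 33.6, 22.98 and 39.7 at 1000 nM. All treated libraries lay below all controls. It fell at 1000 nM, with a log2 change of −1.09 (SE 0.23, adjusted p = 8.31e-04, relative −0.14 with adjusted p = 0.260). At 100 nM it fell on both scales (−0.77 with adjusted p = 0.0203, and −0.34 with adjusted p = 0.0267), each lost without DMSO replicate 1 or 2 or without 100 nM replicate 1 or 2 (adjusted p from 0.0534 to 0.107).

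TRIAP1, a small gene whose product works in mitochondrial lipid transfer and restrains apoptosis, measured 239, 289 and 226 FPKM in AMO1 DMSO, 141, 142 and 164 at 100 nM and 107, 75.8 and 128 at 1000 nM. No treated library reached a control. The change at 1000 nM was log2 −1.29 (SE 0.22, adjusted p = 1.73e-04) and −0.33 relative to the median gene (adjusted p = 0.00850), a value that became 0.06 (adjusted p = 0.657) when scaled to the summed FPKM. At 100 nM the values were −0.74 (adjusted p = 0.0200) and −0.31 (adjusted p = 0.0175). Both 100 nM calls were lost without DMSO replicate 1 or 2 or 100 nM replicate 2, and the deposited one also without 100 nM replicate 1 (adjusted p from 0.0513 to 0.105).

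PERP, EI24, a gene of endoplasmic reticulum and autophagy, and RPS27L, a ribosomal protein gene close to RPS27, fell at 1000 nM in the AMO1 libraries on the deposited scale alone (−1.25, −1.11 and −0.98). Scaled to the summed FPKM, EI24 and RPS27L were higher than in DMSO (0.24 and 0.38, adjusted p = 0.0332 and 0.00423), so their direction depends on the scale. The EI24 and RPS27L calls at 100 nM (−0.64 and −0.65) were lost without any 1 of the 6 libraries (adjusted p from 0.0762 to 0.13). The tumour necrosis factor receptor family gene EDA2R and PHLDA3 rose relative to the median gene, by 0.94 (adjusted p = 0.00186) and 0.63 (adjusted p = 0.00330), with deposited changes of 0.21 and −0.31 that did not pass (PHLDA3 turned to −0.12 on the relative scale without the filter on low values). PERP went from 25.2 to 31.2 FPKM in DMSO to 10.2 to 12.8 at 1000 nM, EI24 from 153 to 168 to 53.6 to 90.5 and RPS27L from 325 to 372 to 121 to 225, with no overlap for these 3. The plot of per-library values shows the AMO1 and XG1 libraries side by side.

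**Figure D3:**
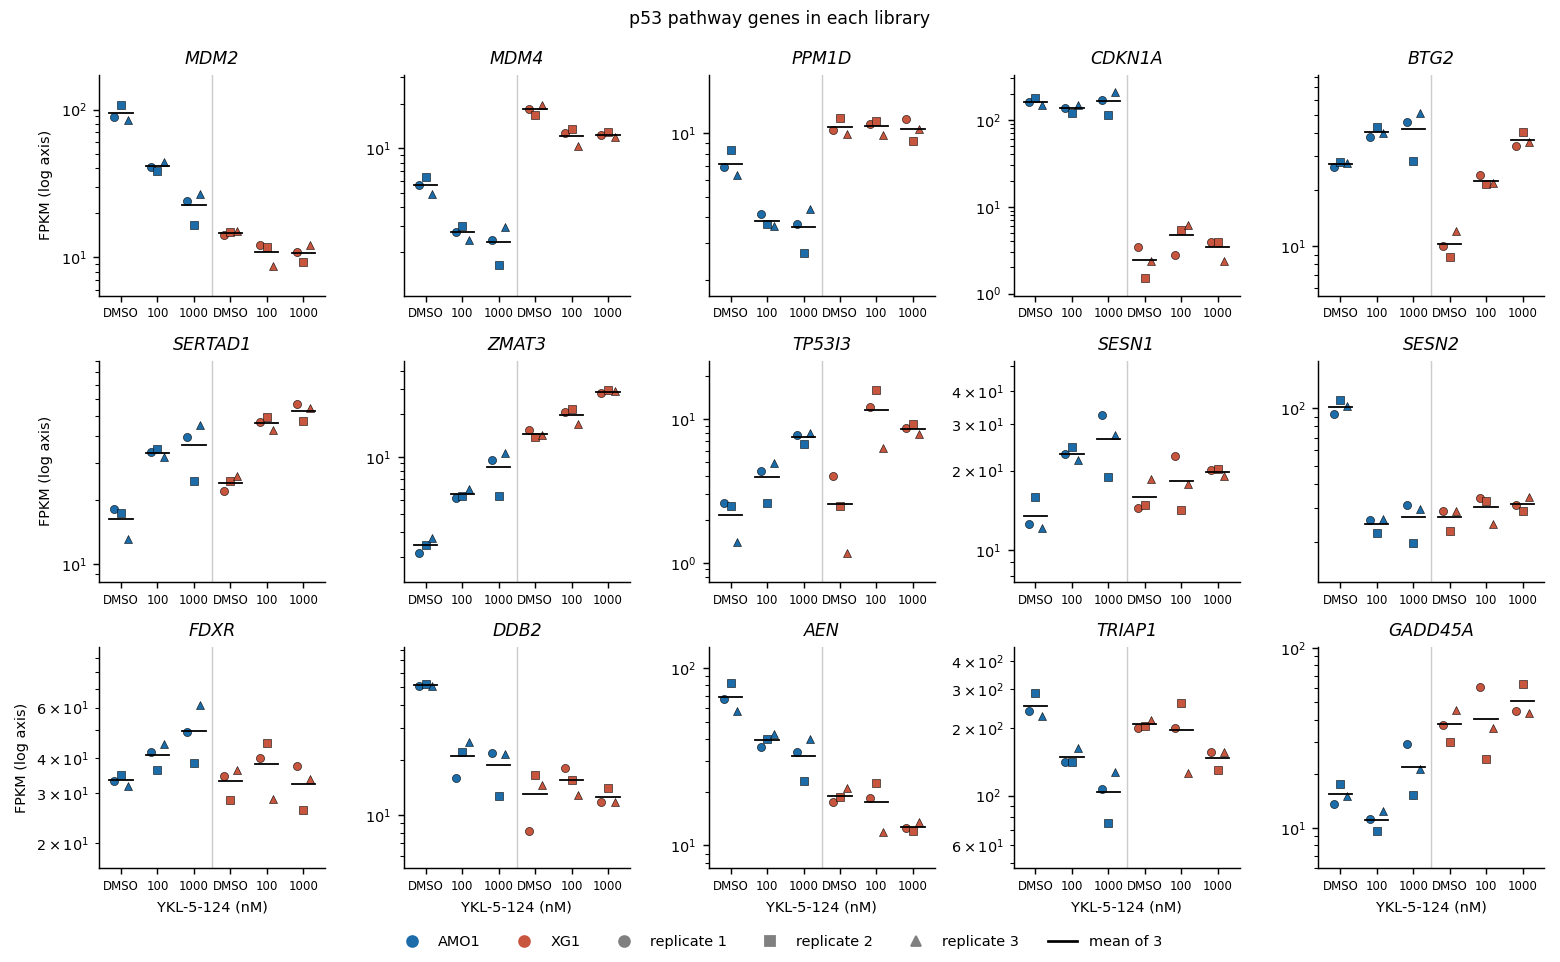
FPKM (log axis, one scale per panel) of 15 p53 pathway genes in each of the 18 libraries, by dose of YKL-5-124 in nM, for AMO1 (blue) and XG1 (red). Symbols mark replicates 1 to 3 and the bar is the mean of 3. MDM2 falls from 94.3 to 22.5 FPKM on average in AMO1, and BTG2, SERTAD1 and ZMAT3 lie above DMSO in both lines at 1000 nM.

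Between the 2 doses in AMO1, MDM2 fell further while TP53I3 and GADD45A rose. On the deposited scale 2 of 28 rose, where 0.209% of all genes did, and 1 fell, where 23.4% did. On the relative scale 11 rose (1.67% of all genes) and 1 fell (4.18%). From 100 to 1000 nM the deposited changes were log2 −0.87 for MDM2 (adjusted p = 0.0172), 0.80 for TP53I3 (adjusted p = 0.0277) and 0.89 for GADD45A (adjusted p = 0.0210). These 3 calls were not firm: the deposited count was 0 without 100 nM replicate 1 or replicate 2, 1 without 100 nM replicate 3, and 6 without 1000 nM replicate 2 or replicate 3. Relative to the median gene the 5 largest rises were GADD45A (1.40), TP53I3 (1.27), ZMAT3 (0.98), FDXR (0.78) and CDKN1A (0.77). SESN2 also rose from 100 to 1000 nM on that scale (0.61, adjusted p = 0.00518), while staying below DMSO at both doses.

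In XG1 fewer p53 pathway genes passed. At 1000 nM BTG2, SERTAD1, ZMAT3 and TP53I3 rose on both scales, and PLK3, TP53INP1 and SESN2 on the relative scale alone. At 1000 nM 4 of 26 rose on the deposited scale (3.69% of 11810 genes rose) and 3 fell (13.2%), and on the relative scale 7 rose (9.41% of all genes) and 1 fell (10.2%), or 9 and 0 when scaled to the summed FPKM. Leaving out DMSO replicate 3 took the deposited count of 7 to 3, and leaving out 1000 nM replicate 2 or replicate 3 took it to 4. At 100 nM 3 rose (2.48% of all genes) and 1 fell (10%) on the deposited scale, and 5 rose (7.1%) and 1 fell (7.31%) on the relative scale, or 6 and 0 when scaled to the summed FPKM. The relative count of 6 became 3 without DMSO replicate 3. The median over the 26 genes was log2 −0.02 at 1000 nM and 0.01 at 100 nM on the deposited scale, and 0.14 and 0.16 on the relative scale.

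BTG2 measured 9.96, 8.70 and 12.0 FPKM in XG1 DMSO, 23.8, 21.4 and 21.6 at 100 nM and 34.3, 40.5 and 35.9 at 1000 nM. The 3 groups did not overlap. It rose by log2 1.06 at 100 nM (SE 0.16, adjusted p = 0.00291) and 1.76 at 1000 nM (SE 0.16, adjusted p = 1.02e-04). SERTAD1 measured 22.1, 24.5 and 25.9 FPKM in DMSO, 46.8, 49.4 and 42.9 at 100 nM and 56.6, 47.0 and 54.2 at 1000 nM, with both doses above all controls, and rose by 0.91 (adjusted p = 0.00291) and 1.09 (adjusted p = 5.83e-04). ZMAT3 measured 15.5, 13.8 and 14.3 FPKM in DMSO, 20.5, 21.5 and 17.0 at 100 nM and 27.7, 29.3 and 28.7 at 1000 nM, again without overlap. It rose at 1000 nM by 0.93 (SE 0.15, adjusted p = 0.00197), and at 100 nM on the relative scale alone (0.58, adjusted p = 0.0130, 0.0522 without DMSO replicate 3). All 3 genes also rose on the relative scale at 1000 nM, by 1.93, 1.26 and 1.10.

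TP53I3 measured 4.04, 2.49 and 1.18 FPKM in XG1 DMSO, 12.2, 16.0 and 6.35 at 100 nM and 8.63, 9.24 and 7.84 at 1000 nM. The spread within DMSO and 100 nM was wide, and no treated library reached down to a control. It rose by log2 1.81 at 100 nM (SE 0.34, adjusted p = 0.00781) and 1.504 at 1000 nM (SE 0.34, adjusted p = 0.0128, 0.0532 without DMSO replicate 3), with relative values of 1.93 and 1.63. PLK3 and TP53INP1 rose in XG1 at 1000 nM on the relative scale alone, by 0.91 (adjusted p = 0.00732) and 0.68 (adjusted p = 0.0130). PLK3 also did so at 100 nM (0.79, adjusted p = 0.0195), a call lost without any 1 of the 3 DMSO libraries (adjusted p from 0.0501 to 0.0666).

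MDM4 was the member that fell in XG1 on both scales. It measured 18.4, 16.8 and 19.6 FPKM in DMSO, 12.7, 13.4 and 10.4 at 100 nM and 12.4, 12.8 and 12.0 at 1000 nM. All treated libraries lay below all controls. The changes of log2 −0.56 (adjusted p = 0.0454) and −0.52 (adjusted p = 0.0461) were near the threshold and were lost without any 1 of the libraries compared (adjusted p from 0.0535 to 0.157 on the deposited scale and from 0.0627 to 0.132 on the relative scale). Scaled to the summed FPKM, the change at 1000 nM was −0.10 (adjusted p = 0.586). RPS27L and DRAM1 fell at 1000 nM on the deposited scale alone (−0.51 and −0.85, adjusted p = 0.0312 and 0.0478). Without DMSO replicate 3 or without 1000 nM replicate 2 or 3 neither passed (adjusted p from 0.0843 to 0.182), and RPS27L was also lost without DMSO replicate 1 (0.0866) and DRAM1 without DMSO replicate 2 (0.0729).

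MDM2 and CDKN1A did not pass in XG1 at either dose. MDM2 measured 14.2, 14.8 and 14.96 FPKM in XG1 DMSO, 12.1, 11.7 and 8.80 at 100 nM and 10.8, 9.33 and 12.1 at 1000 nM. These treated libraries lay under the controls, but the changes of log2 −0.41 and −0.42 did not pass (adjusted p = 0.154 and 0.136). CDKN1A measured 3.47, 1.51 and 2.40 FPKM in DMSO, 2.81, 5.38 and 6.18 at 100 nM and 3.98, 3.93 and 2.38 at 1000 nM. Its groups overlapped, and the changes of 0.73 (SE 0.31, adjusted p = 0.143) and 0.37 (SE 0.31, adjusted p = 0.456) did not pass.

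SESN2 measured 28.9, 22.7 and 28.8 FPKM in XG1 DMSO, 34.0, 32.7 and 24.7 at 100 nM and 31.1, 29.1 and 34.3 at 1000 nM. It passed at 1000 nM on the relative scale alone, upward (0.41, adjusted p = 0.0378), and not without DMSO replicate 1, 2 or 3 or without 1000 nM replicate 2 or 3 (adjusted p from 0.0503 to 0.136). DDB2 measured 8.19, 16.5 and 14.6 FPKM in DMSO, 18.1, 15.6 and 12.8 at 100 nM and 11.8, 14.0 and 11.8 at 1000 nM. SESN1 measured 14.5, 14.8 and 18.5, 22.6, 14.2 and 17.8 and 20.1, 20.2 and 19.1 in the same order. Their groups overlapped between DMSO and 100 nM, and neither gene passed at either dose.

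FDXR measured 34.6, 28.3 and 36.2 FPKM in XG1 DMSO, 40.0, 45.1 and 28.5 at 100 nM and 37.5, 26.2 and 33.7 at 1000 nM. PPM1D measured 10.4, 11.9 and 9.93 in DMSO, 11.1, 11.4 and 9.85 at 100 nM and 11.7, 9.18 and 10.5 at 1000 nM. Both genes overlapped across the 3 groups. AEN measured 17.5, 18.8 and 21.03 FPKM in DMSO, 18.6, 22.5 and 11.9 at 100 nM and 12.6, 12.1 and 13.6 at 1000 nM, and TRIAP1 201, 205 and 218, 200.5, 260.4 and 126 and 157, 130.04 and 156 in the same order. At 1000 nM all libraries of AEN and TRIAP1 lay below the controls, with changes of −0.55 (adjusted p = 0.103) and −0.50 (adjusted p = 0.141) that did not pass.

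The members not yet named for XG1 had no call at either dose. ASCC3 went from 5.82 to 7.36 FPKM in DMSO to 3.36 to 3.92 at 1000 nM, with every library lower (−0.66, adjusted p = 0.0776). XPC also had every library lower, from 9.07 to 10.5 to 7.45 to 8.38 (−0.28, adjusted p = 0.374). GADD45A (0.41, from 29.9 to 45.5 to 43.4 to 63.3 FPKM), CMBL (−0.42, from 30.2 to 38.6 to 22.3 to 30.7), EI24 (−0.19, from 283 to 307 to 248 to 286), CCNG1 (−0.10, from 56.9 to 73.3 to 57.3 to 71.7), POLH (0.05, from 2.97 to 4.48 to 3.43 to 3.90) and TP53I11 (0.01, from 0.333 to 1.48 to 0.706 to 1.51) overlapped their controls.

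Between the 2 doses in XG1 0 of 26 p53 pathway genes passed on either scale with limma. Over all genes 0.0677% rose and 0.322% fell on the deposited scale, and 0.161% rose and 0.754% fell on the relative scale. BTG2 gave log2 0.70 (SE 0.16, adjusted p = 0.118) and ZMAT3 0.52 (SE 0.15, adjusted p = 0.223), with 1000 nM libraries above all 100 nM libraries for both genes. Scaling to the summed FPKM gave 3 higher and 0 lower.

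**Figure D4:**
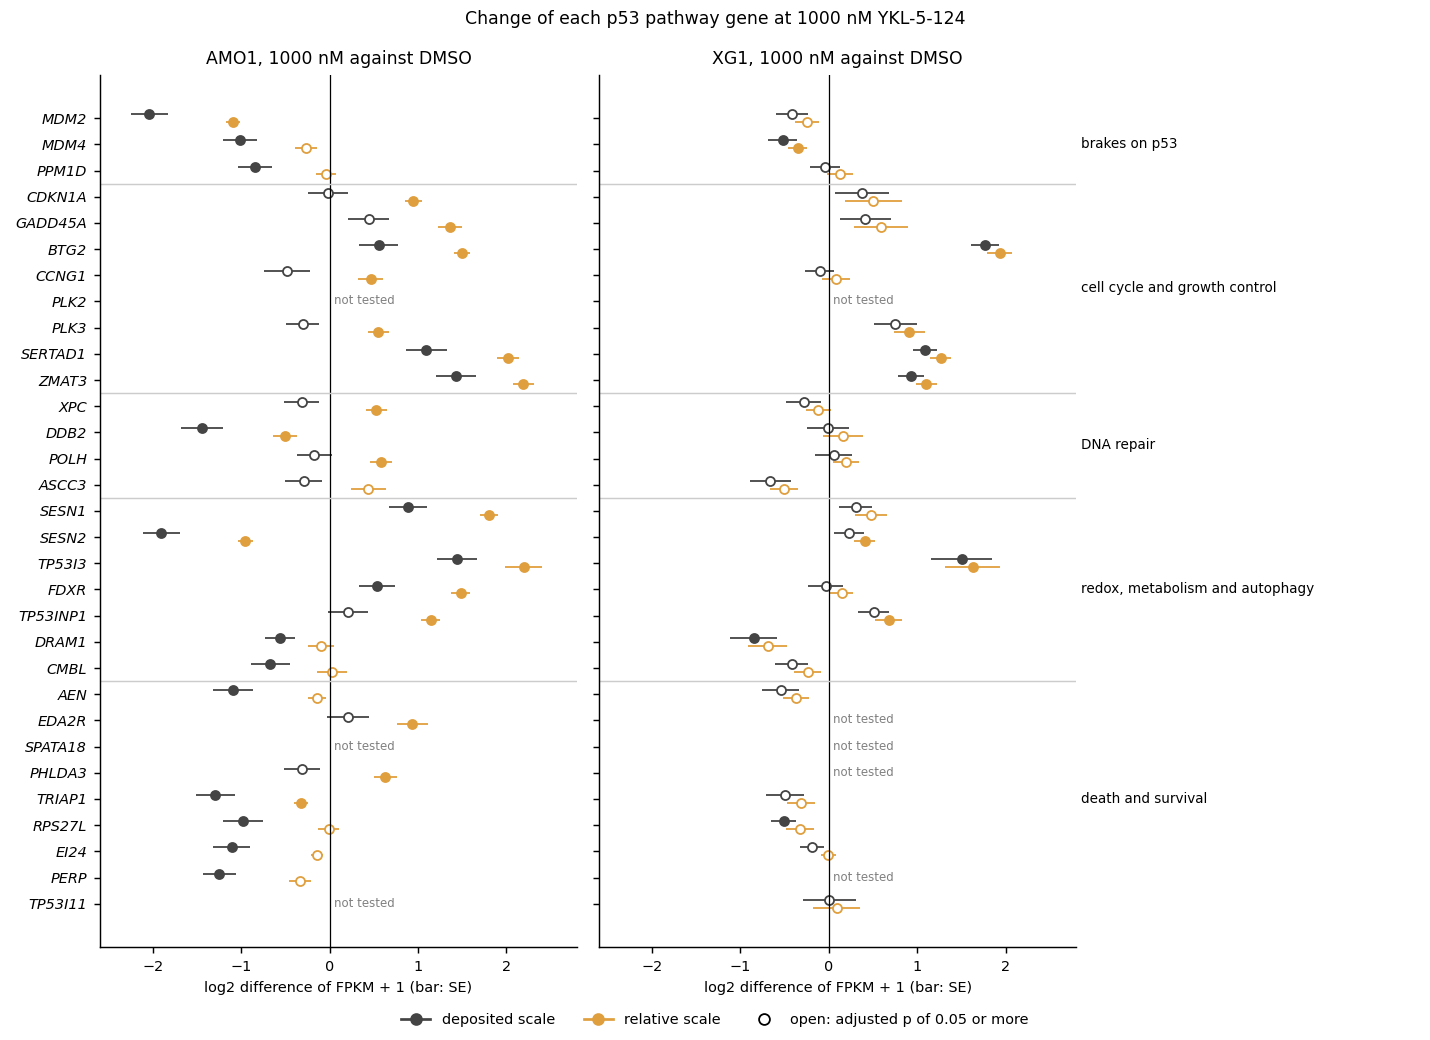
Log2 difference of FPKM + 1 at 1000 nM against DMSO for each p53 pathway gene, by role, in AMO1 (left) and XG1 (right), on the deposited scale (dark) and the relative scale (orange); bars are SE, and open circles have an adjusted p of 0.05 or more. In AMO1 the orange points of CDKN1A, GADD45A and BTG2 lie near 1 or above, and MDM2 and SESN2 lie below 0 on both scales.

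Set side by side at 1000 nM, BTG2, SERTAD1, TP53I3 and ZMAT3 rose in both lines on both scales. PLK3 and TP53INP1 did so on the relative scale alone. DRAM1, MDM4 and RPS27L fell in both lines on the deposited scale, whereas on the relative scale MDM4 was the only member to fall in XG1 and did not pass in AMO1. SESN2 was called in opposite directions on the relative scale, lower in AMO1 and higher in XG1. Across the 25 members tested in both lines the Pearson correlation of the changes at 1000 nM was 0.69 on the deposited scale and 0.72 on the relative scale, a description over genes that share their libraries.

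The difference between the lines' responses (change in XG1 minus change in AMO1, from all 18 libraries) was tested for 29 members. At 1000 nM 8 differences were positive on the deposited scale, where 32.8% of all genes were, and 0 negative (1.5% of all genes), while on the relative scale 2 were positive (10.1%) and 7 negative (6.81%). At 100 nM 2 were positive (5.37%) and 0 negative (0.86%) on the deposited scale, and 3 positive (6.28%) and 3 negative (3.26%) on the relative scale. The deposited count of 2 at 100 nM became 7 without XG1 100 nM replicate 3. MDM2 differed at 1000 nM by log2 1.62 (SE 0.25, adjusted p = 2.07e-04, relative 0.89), with changes of −2.04 in AMO1 and −0.42 in XG1. SESN2 differed by 2.14 at 1000 nM (adjusted p = 2.27e-05) and 2.17 at 100 nM (adjusted p = 7.63e-05), with relative values of 1.40 and 1.93. DDB2 differed at 100 nM by 1.54 (adjusted p = 0.0125, relative 1.28 with adjusted p = 0.00752). In the other direction, FDXR, SESN1 and ZMAT3 rose further in AMO1 at 1000 nM on the relative scale, with differences of −1.32, −1.32 and −1.19 (adjusted p = 7.64e-05, 4.43e-04 and 1.36e-04). On the deposited scale those 3 differences were −0.57, −0.58 and −0.50, and did not pass. The marker check applies here too: the part of the cell type markers in these differences was not tested.

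**Figure D5:**
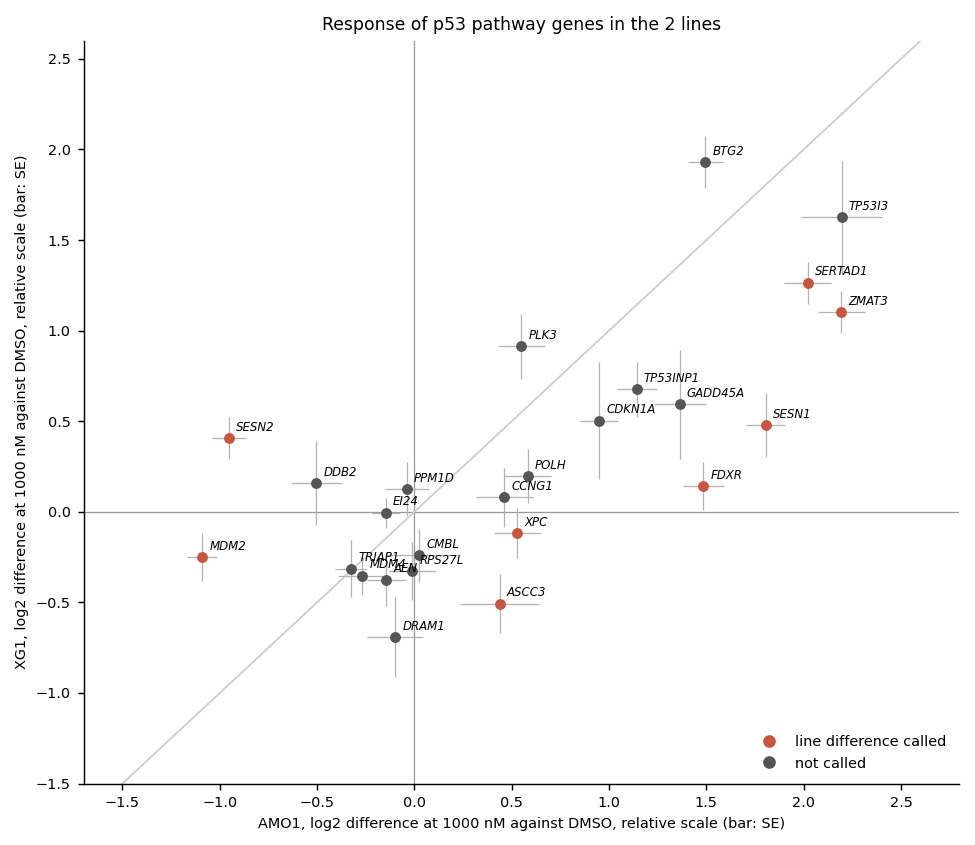
Log2 difference at 1000 nM against DMSO on the relative scale in AMO1 (x axis) and XG1 (y axis) for the 25 p53 pathway genes tested in both lines; bars are SE, the grey line marks equal change, and red points were called in the test of the line difference. SESN2 and MDM2 lie left of 0 in AMO1, and BTG2, TP53I3, SERTAD1 and ZMAT3 lie above 1 in both lines.

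Other genes of the pathway were read from 4 lists. Of all genes, 23.5% rose and 24.5% fell in AMO1 at 1000 nM on the relative scale, and 14% and 17% at 100 nM. The relative shares in XG1 were 9.41% and 10.2% at 1000 nM, and 7.1% and 7.31% at 100 nM. Among regulators of p53 in AMO1, 0 of 26 rose and 16 fell at 1000 nM on the deposited scale, where 65.7% of all genes fell. The relative counts were 5 higher and 6 lower, a split that became 12 and 3 when scaled to the summed FPKM. At 100 nM 0 rose and 10 fell, where 29.5% of all genes fell, with 1 and 4 on the relative scale, or 4 and 4 when scaled to the summed FPKM. Without the filter on low values 0 rose and 3 fell at 100 nM on each scale. The deposited count of 10 became 6 without DMSO replicate 2, 100 nM replicate 2 or 100 nM replicate 3. The checkpoint kinase gene CHEK1, also held by the list of cell division genes described last, fell from 12.8 ± 1.38 to 1.21 ± 0.0534 FPKM (mean ± SD, n = 3; log2 −2.64, SE 0.18, adjusted p = 5.06e-08). CDKN2A, whose products include the MDM2 inhibitor ARF, fell from 47.3 ± 4.81 to 11.8 ± 3.29 (−1.95, adjusted p = 6.68e-06). The value of the whole gene does not tell its products apart. In XG1 0 of 24 rose and 5 fell at 1000 nM, where 13.2% of all genes fell (relative 2 and 5, or 4 and 3 when scaled to the summed FPKM). The deposited 5 became 3 without DMSO replicate 1. At 100 nM 0 rose and 4 fell, where 10% of all genes fell (relative 2 and 4). With no filter on low values, 3 regulators passed at 1000 nM and 2 at 100 nM on the deposited scale, and 0 at either dose on the relative scale. At 100 nM the deposited count became 2 without DMSO replicate 1 or replicate 3, and the relative count of 6 became 0 without DMSO replicate 1 or replicate 2 and 3 without DMSO replicate 3.

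Among 16 death targets of p53 tested in AMO1, 1 rose and 10 fell at 1000 nM, where 65.7% of all genes fell (relative 5 and 4, or 6 and 2 when scaled to the summed FPKM). At 100 nM 1 rose and 5 fell, where 29.5% of all genes fell (relative 2 and 4). PMAIP1, a death activator gene, went from 43.9 ± 5.56 to 9.97 ± 0.547 and 6.85 ± 1.90 FPKM (−2.54 at 1000 nM, SE 0.21, adjusted p = 3.40e-07, relative −1.63). At 100 nM BBC3, another death activator gene, fell from 275 ± 19.2 to 103 ± 5.84 FPKM (−1.40, adjusted p = 1.37e-04). The gene that rose at each dose was TNFRSF10D, a decoy receptor for the death ligand TRAIL, from 2.38 ± 0.477 to 7.78 ± 1.24 and 12.5 ± 2.852 FPKM. In XG1 1 of 15 rose and 3 fell at 1000 nM, where 3.69% and 13.2% of all genes did (relative 5 and 2, or 7 and 1 when scaled to the summed FPKM). At 100 nM 1 rose and 0 fell, where 2.48% and 10% of all genes did (relative 2 and 0). Dropping the filter on low values left 2 death targets called at 1000 nM on the deposited scale and 0 at either dose on the relative scale. At 1000 nM the count of 4 became 2 without any 1 of the DMSO libraries or without 1000 nM replicate 3, and the 100 nM count of 1 was 5 when 100 nM replicate 1 was left out and 0 when DMSO replicate 1 was. On the relative scale the 7 at 1000 nM became 4 without DMSO replicate 1 or 1000 nM replicate 3, 3 without DMSO replicate 3 or 1000 nM replicate 2 and 2 without DMSO replicate 2, and the 2 at 100 nM became 1 without any 1 of the 3 DMSO libraries or without 100 nM replicate 1 or 2. PMAIP1 fell in XG1 from 60.7 ± 6.46 to 33.9 ± 5.37 FPKM (−0.83, adjusted p = 0.00705), and the survival gene BCL2L1 rose from 7.92 ± 0.491 to 15.5 ± 3.001 (0.87, adjusted p = 0.0219).

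Of 44 other direct targets tested in AMO1, 2 rose and 25 fell at 1000 nM, where 65.7% of all genes fell, and 1 rose and 11 fell at 100 nM, where 29.5% did. The relative scale gave another split: 23 rose and 8 fell at 1000 nM, where 23.5% and 24.5% of all genes did. At 100 nM 13 rose and 7 fell on that scale, where 14% and 17% of all genes did. Scaling to the summed FPKM gave 27 and 5 at 1000 nM and 20 and 5 at 100 nM. Without the filter on low values the relative split was the other way, with 3 higher and 14 lower at 1000 nM and 1 higher and 7 lower at 100 nM, and the deposited one at 100 nM was 0 and 7. PCNA, the replication clamp gene, fell from 190.4 ± 13.5 to 14.4 ± 5.32 FPKM at 1000 nM (−3.70, adjusted p = 4.59e-08), and DDIT4, an mTORC1 inhibitor gene, from 846 ± 69.0 to 193 ± 43.6 (−2.15, adjusted p = 1.54e-06). In XG1 2 of 42 rose and 3 fell at 1000 nM, where 3.69% and 13.2% of all genes did. The relative counts there were 6 and 3, against 9.41% and 10.2% of all genes, or 15 and 2 when scaled to the summed FPKM. At 100 nM 4 rose and 2 fell, against 2.48% and 10% of all genes (relative 6 and 1, against 7.1% and 7.31%). With the filter dropped, 1 of these targets passed at 1000 nM and 0 at 100 nM on the relative scale. At 1000 nM the relative count of 9 became 4 without DMSO replicate 1 and 5 without DMSO replicate 2. At 100 nM the deposited count of 6 became 3 without DMSO replicate 1 or replicate 2, and the relative count of 7 became 4 without DMSO replicate 1. The stress cytokine gene GDF15 rose in XG1 from 103 ± 17.6 to 287 ± 22.1 FPKM (1.48, SE 0.15, adjusted p = 2.20e-04), while PCNA fell from 228 ± 33.3 to 91.4 ± 3.82 (−1.30, adjusted p = 7.46e-04).

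The 24 cell division genes repressed through p21 and DREAM fell in AMO1 without exception, 24 of 24 at each dose on both scales. Of all genes 65.7% fell at 1000 nM and 29.5% at 100 nM on the deposited scale, and 24.5% and 17% on the relative scale. The list had medians of log2 −1.83 at 100 nM and −2.98 at 1000 nM on the deposited scale. The mitotic kinase gene AURKB fell from 463 ± 38.8 to 72.6 ± 6.90 and 23.03 ± 4.36 FPKM (−4.28 at 1000 nM, SE 0.20, adjusted p = 4.20e-09, relative −3.33). The cyclin gene CCNA2 fell from 45.7 ± 4.08 to 2.19 ± 0.429 (−3.88). In XG1 0 of 24 rose and 20 fell at 1000 nM, where 13.2% of all genes fell (relative 0 and 19, where 10.2% fell). The relative 19 became 3, all lower, without the filter on low values. AURKB fell in XG1 from 357 ± 38.1 to 80.7 ± 9.50 FPKM (−2.13, adjusted p = 7.39e-06). At 100 nM in XG1 0 rose and 7 fell, where 10% of all genes fell (relative 1 and 4, where 7.1% and 7.31% did). With no filter 3 fell on the deposited scale and 0 on the relative scale, and without a variance trend 3 fell on the deposited scale. The deposited 7 became 1 without DMSO replicate 1 or 3 and 4 without DMSO replicate 2 or 100 nM replicate 2 or 3, and the relative count of 5 became 1 without DMSO replicate 1 and 0 without DMSO replicate 2. CDKN1A itself passed on neither scale in AMO1 at 100 nM, and the part of p21 in the fall of these genes was not tested.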

How the data were processed

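The authors deposited 1 table of FPKM per library, 18 in all, each with 26249 genes and 92 ERCC spike-in rows. Per the submitters' processing notes these were made with HISAT2 and Cuffnorm on hg19; versions, filters, read depth and the use of strand are not given in the sources used here. That the deposited FPKM values were rescaled to the spike-ins is inferred from their sums. The members and lists were chosen with earlier results of these data known.

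Here log2(FPKM + 1) was fitted with limma 3.58.1 (R 4.3.3) with a variance trend, per line (9 libraries) or over both lines (18), after keeping genes with at least 1 FPKM in at least 3 libraries, with Benjamini-Hochberg adjustment over all genes tested. The relative scale divides each library by a median-ratio size factor. The fitting script was tested on simulated data. Per-library values are given for MDM2, MDM4 and CDKN1A and for members called on both scales, other members by group, and up to 4 genes of each other list with the smallest adjusted p. Alternatives were a pseudocount of 0.25, no filter, no variance trend, a replicate block, scaling to the summed FPKM and leaving out each library. Promoter sequences came from RefSeq (GRCh38.p14), and overlapping genes from the exons of GENCODE 29. One gene that the naming rule lists is not reported here.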

Additional observations from a re-analysis of the deposited data

Results flagged for a closer look

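A test of the difference between the lines' responses (change in XG1 minus change in AMO1, log2, limma over 18 libraries) passed on both scales for 3 of the 29 genes tested. No share of all genes passing on both scales was computed. On the deposited and relative scales, 32.8% and 10.1% of all genes differed upward at 1000 nM, and 5.37% and 6.28% at 100 nM. MDM2 differed at 1000 nM by 1.62 on the deposited scale and 0.889 relative to the median gene. SESN2 differed at 1000 nM by 2.14 and 1.4, and at 100 nM by 2.17 and 1.93. DDB2 differed at 100 nM by 1.54 and 1.28. In each case the fall against DMSO passed in AMO1, and no fall passed in the libraries labelled XG1. For MDM2 at 1000 nM every XG1 library still lay below every control on the deposited scale (9.33 to 12.1 against 14.2 to 14.96 FPKM).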

How the results depend on the processing

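Of the log2 changes of members recomputed under the alternatives, 5560 kept their side of the threshold, 259 lost their call and 79 gained one. A further 15 reversed, which here means a change of sign with a call before or after. Changes called neither before nor after count among the 5560 whatever their sign. The counts of the other lists are not part of this tally. The number of members called changed most without the filter on low values. It became 8 (deposited) and 6 (relative) in AMO1 at 100 nM, 0 and 0 between the doses in AMO1, 3 and 2 in XG1 at 1000 nM, 0 (relative) in XG1 at 100 nM and 2 (relative) for the line difference at 100 nM. Without the filter the size factors include genes at the files' lowest value. Scaling to the summed FPKM gave 3 between the doses in XG1. Leaving out 1 library at a time gave deposited counts of 8 to 12 in AMO1 at 100 nM, 0 to 6 between the doses in AMO1, 3 to 6 in XG1 at 1000 nM and 2 to 7 for the line difference at 100 nM, and relative counts of 3 to 7 in XG1 at 100 nM.

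Of the 15 that reversed, those without the filter were XPC (−0.15), POLH (−0.0216), CCNG1 (−0.30), PLK3 (−0.13) and PHLDA3 (−0.12) in AMO1 at 1000 nM, and the line difference of XPC there (0.0344). With the summed FPKM, TRIAP1 (0.0646), RPS27L (0.38) and EI24 (0.24) turned in AMO1 at 1000 nM, and between the lines in DMSO SESN1 (0.40), XPC (0.47), POLH (0.0616), FDXR (0.18), CCNG1 (0.58) and RPS27L (0.0423). The cause was not tested. Of the members called, 15 of 18 in AMO1 at 1000 nM and 3 of 7 in XG1 kept their call in every setting on the deposited scale, and 8 of 19 and 2 of 8 on the relative scale.

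Pairing by replicate number was looked for in correlations of the deviations from group means. In AMO1 same-numbered libraries gave −0.178 to 0.125 and other pairs −0.171 to 0.168. In XG1 same-numbered libraries gave −0.0441 to 0.157 (median 0.0452) and other pairs −0.137 to 0.0932 (median −0.0230). No pairing was seen in AMO1, and these values cannot exclude it in XG1. With the replicate number as a block, 16 members were called in AMO1 at 1000 nM, 11 at 100 nM and 5 in XG1 at 1000 nM on the deposited scale. No count of members moved by over 1.5 times under the block. With no read depth given, no interval for counting error was computed.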
